A study of Mus musculus with 9 samples.

Results

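Effector cytokine genes of helper T cells were followed in splenic T cells kept for 4 h in medium conditioned by adipocytes, in medium conditioned by stromal cells, or in unconditioned medium. They are the genes of the deposited sample table whose symbol is Il2, Il3, Il4, Il10, Il13, Il17a, Il17f, Il21, Il22 or Ifng. All 10 symbols were found, among 2889 genes, and all 10 were among the 2868 that passed a filter on low values. CD3+ T cells were isolated by negative selection from spleens of wild-type (WT) C57BL/6 mice, and each of 3 mice gave 1 sample to each of the 3 media. The age of the mice, the source of the conditioning cells and any stimulation of the T cells are not stated in the labels. The table holds genes that the authors' deposited tables list as changed beyond 1.5-fold in a conditioned medium, so its genes were chosen by their differences from unconditioned medium in these same samples. The values of the cytokine genes against unconditioned medium are therefore a description with no test.

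Helper T cells are sorted into types by the cytokines they release. Interferon gamma marks type 1 cells, interleukins 4, 5 and 13 mark type 2 cells, interleukins 17A, 17F and 22 mark Th17 and related cells, and interleukin 21 is typical of follicular helper cells. Interleukin 2 is the growth factor of freshly triggered T cells, interleukin 3 acts on myeloid progenitors and basophils, and interleukin 10 restrains inflammation. These genes are nearly silent in resting naive T cells. Signals of the T cell receptor open them through NFAT, a factor driven by calcium, together with AP-1 and NF-kB.

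Several of the genes are neighbours. In the RefSeq order of protein-coding genes Il2 is next to Il21 on chromosome 3, Il4 is next to Il13 on chromosome 11, and Il17a is next to Il17f on chromosome 1. On chromosome 10 Iltifb, a close copy of Il22, lies between Il22 and Ifng, and reads of Il22 could be split between the copies. RefSeq promoters (GRCm38.p6) matched 9 of the 10 genes, all but Il10. The 250 bases before the start are printed for the 4 genes with the highest adipocyte means, which were high together. Capitals mark GGAAA, the core of NFAT sites, on either strand (TTTCC is the same core on the other strand).
Il4: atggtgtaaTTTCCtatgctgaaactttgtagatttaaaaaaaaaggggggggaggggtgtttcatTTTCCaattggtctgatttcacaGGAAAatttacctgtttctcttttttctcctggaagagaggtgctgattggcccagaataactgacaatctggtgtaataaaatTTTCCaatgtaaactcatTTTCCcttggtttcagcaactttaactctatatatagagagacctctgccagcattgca
Il21: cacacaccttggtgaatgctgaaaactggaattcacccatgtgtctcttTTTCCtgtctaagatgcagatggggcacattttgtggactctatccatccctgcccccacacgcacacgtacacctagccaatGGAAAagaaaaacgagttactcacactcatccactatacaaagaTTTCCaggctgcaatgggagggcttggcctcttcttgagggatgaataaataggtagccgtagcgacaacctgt
Ifng: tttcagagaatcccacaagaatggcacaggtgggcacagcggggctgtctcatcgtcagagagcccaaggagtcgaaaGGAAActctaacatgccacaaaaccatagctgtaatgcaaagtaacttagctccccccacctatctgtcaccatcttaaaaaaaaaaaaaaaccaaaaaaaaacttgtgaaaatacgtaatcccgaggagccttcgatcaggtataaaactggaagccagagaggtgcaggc
Il2: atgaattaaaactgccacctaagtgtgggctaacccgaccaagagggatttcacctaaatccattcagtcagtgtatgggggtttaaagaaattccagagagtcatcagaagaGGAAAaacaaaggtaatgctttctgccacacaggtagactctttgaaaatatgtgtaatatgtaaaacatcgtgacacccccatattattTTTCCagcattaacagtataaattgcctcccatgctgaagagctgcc
These are chr11:53618666-53618915 on the minus strand, chr3:37232637-37232886 on the minus strand, chr10:118440796-118441045 on the plus strand and chr3:37125955-37126204 on the minus strand, written 5′ to 3′ along the gene. GGAAA occurs 5 times for Il4, 3 times for Il21, 2 times for Il2 and 1 time for Ifng. Of 32851 promoter windows of this length 55.6% hold it and 6.39% hold at least 3. A window at an inner start of Il4 holds 0. Of the other genes Il13 has 4, Il17f 2, Il3 and Il22 1 each and Il17a 0. TGANTCA, an AP-1 motif that cannot share all its bases with GGAAA, was found for Il17a alone of the 9, against 6.75% of all windows. A match is a run of letters and not a measured site.

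Reads on the listed genes came to 6522742 to 13758643 per sample, and 1 read was worth 0.66 to 1.44 normalized counts. With 0 reads up to 3 are allowed, and intervals and limits on reads cover counting error only. Directions depend on the authors' scaling: a median of ratios over the listed genes shifted log2 differences upward by 0.93 for adipocyte over unconditioned medium, by 0.36 for stromal over unconditioned medium and by 0.57 for adipocyte over stromal medium, and by less for genes with few reads. In limma the numbers of higher and lower genes went from 969 and 1818 to 1078 and 1047 in the first, from 606 and 1049 to 1129 and 562 in the second, and from 968 and 1641 to 1172 and 1091 in the last. Median of ratios takes most genes to be unchanged, but the listed genes were chosen as changed. In adipocyte against unconditioned medium 63.4% of all genes tested were lower, and the rescaling draws their median toward 0. It is given throughout as an alternative setting and not as a correction, and which scaling is nearer the truth was not tested. In bulk samples fewer cells of a type and less RNA per cell cannot be told apart.

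Adipocyte medium held the highest mean of all 10 cytokine transcripts. Every adipocyte sample was above every unconditioned sample for 10 of 10 genes, as for 33.6% of all genes tested (97.2% of which passed the limma threshold in this contrast, 33.8% higher), and nothing is read from that count because this contrast chose the genes. For the 7 genes with reads in unconditioned medium the log2(normalized count + 1) difference ran from 2.32 for Il10 to 5.54 for Il17f. The authors' deposited table for this contrast lists all 10, with Ifng at rank 7 of 3220 by adjusted p. Just inside its threshold of 0.05 are Il13, Il3 and Il17a, whose adjusted p in the authors' deposited table is 0.0235, 0.0260 and 0.0318.

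**Figure D1:**
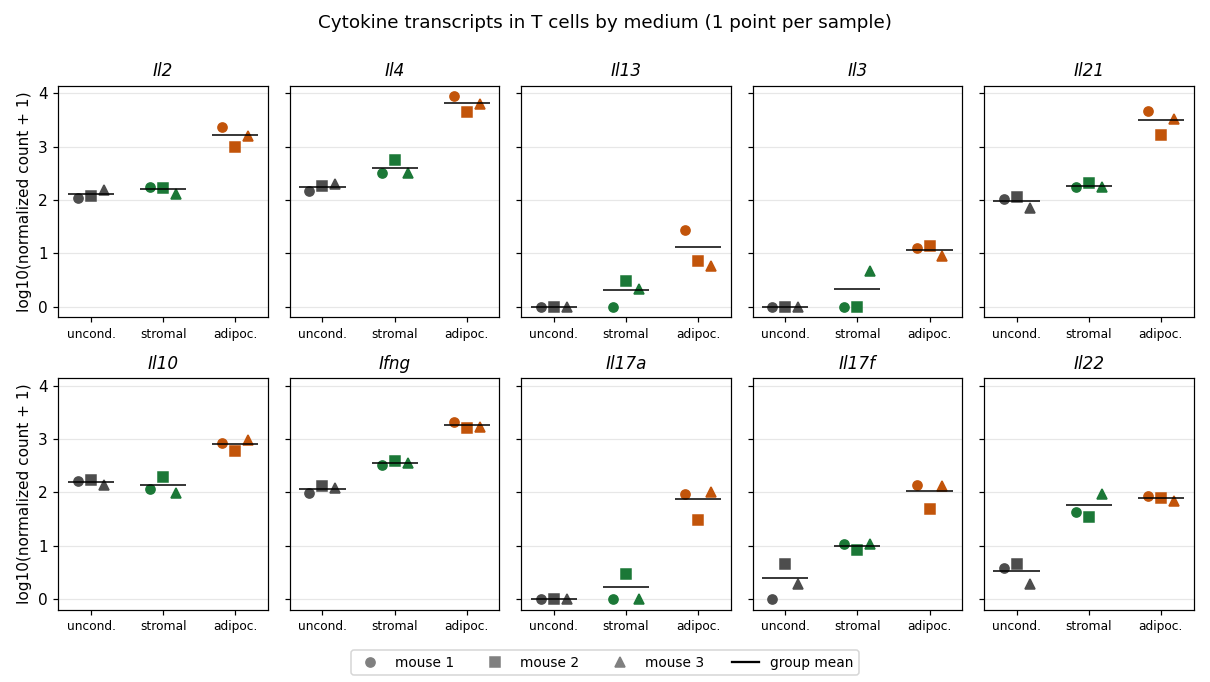
Log10(normalized count + 1) of the 10 cytokine genes in 9 samples, by medium; symbols mark the mouse and bars the mean of 3 samples. Adipocyte samples lie above unconditioned samples for all 10 genes, and Il22 is the 1 gene whose stromal and adipocyte samples overlap.

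Il4 (ENSMUSG00000000869), whose product drives class switching to IgE, was the most abundant. Its normalized counts in mice 1, 2 and 3 were 144, 185 and 199 in unconditioned medium, 326, 556 and 319 in stromal medium, and 8856, 4358 and 6172 in adipocyte medium. The 3 media did not overlap, and stromal samples lay in between. Means were 176 ± 28.6, 400.3 ± 135 and 6462 ± 2263 (SD, n = 3), 36.7-fold unconditioned medium in adipocyte and 2.27-fold in stromal medium. Adipocyte medium exceeded stromal medium by 4.00 on the log2 scale (SE 0.26, limma adjusted p = 7.39e-08). Il4, Il21, Il2, Il10 and Il17f entered the sample table through the authors' adipocyte contrast alone. Their p-values against stromal medium reuse the adipocyte samples that chose them and are no independent test.

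Il13 (ENSMUSG00000020383), whose product acts on epithelium and mucus, was rare. Its reads in mice 1, 2 and 3 were 0, 0 and 0 in unconditioned medium, 0, 3 and 1 in stromal medium, and 18, 7 and 5 in adipocyte medium. In adipocyte medium these were 25.9, 6.30 and 4.88 normalized counts, with mouse 1 far above the others. At 3 reads per unconditioned library, adipocyte medium was at least 3.88-fold higher. The ratio to stromal medium was 9.41 (95% counting interval 3.31 to 36.7). Il13 passed the filter on low values through its adipocyte samples alone, so no p is given for it.

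Il5, for the eosinophil growth factor, follows Il13 and Rad50 on the chromosome. It stood at 19.1 ± 0.470, 19.9 ± 4.32 and 516 ± 241 normalized counts in unconditioned, stromal and adipocyte medium (SD, n = 3). Il5 was 4.55 higher in adipocyte than in stromal medium on the log2 scale (SE 0.32, limma adjusted p = 1.22e-07). As for Il4, this p reuses adipocyte samples that took part in the choice of genes and is no independent test. Septin8, a cytoskeletal GTPase gene on the other side of Il4 beyond Kif3a, went the other way, at 278 ± 33.8, 332 ± 105 and 105 ± 14.2. Kif3a and Rad50 were not analysed here.

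Il3 (ENSMUSG00000018914) was as rare as Il13. Its reads in mice 1, 2 and 3 were 0, 0 and 0 in unconditioned medium, 0, 0 and 3 in stromal medium, and 8, 14 and 8 in adipocyte medium. All adipocyte samples were above all others, at least 3.34-fold over unconditioned medium taken at 3 reads per library. The ratio to stromal medium was 12.5 (95% counting interval 3.90 to 64.2). Il3 likewise passed the filter through its adipocyte samples alone and is given with no p. Csf2, the neighbouring gene for GM-CSF, named here after its values were seen, stood at 4.25 ± 5.36, 18.8 ± 6.03 and 205 ± 70.5 normalized counts in unconditioned, stromal and adipocyte medium (SD, n = 3).

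Il21 (ENSMUSG00000027718), whose product helps B cells in germinal centres, had a pattern like that of Il4. Normalized counts in mice 1, 2 and 3 were 101, 111 and 70.9 in unconditioned medium, 173, 206 and 171 in stromal medium, and 4627, 1685 and 3229 in adipocyte medium. The media did not overlap. Means were 94.5 ± 21.03, 183 ± 19.9 and 3180.1 ± 1472 (SD, n = 3), 33.6-fold unconditioned medium in adipocyte and 1.94-fold in stromal medium. Adipocyte medium exceeded stromal medium by 4.00 on the log2 scale (SE 0.30, limma adjusted p = 1.66e-07).

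Il2 (ENSMUSG00000027720), next to Il21, was high in adipocyte medium only among these means. Normalized counts were 109, 119.9 and 153 in unconditioned medium, 174, 168 and 129 in stromal medium, and 2344, 966 and 1553 in adipocyte medium. Unconditioned and stromal samples overlapped, with a log2 difference of 0.30 (SE 0.27), and both lay below every adipocyte sample. Means were 127 ± 23.3, 157 ± 24.3 and 1621 ± 692 (SD, n = 3), 12.7-fold unconditioned medium in adipocyte medium. Adipocyte medium exceeded stromal medium by 3.28 on the log2 scale (SE 0.27, limma adjusted p = 3.29e-07). Of the neighbours at this locus, named after their values were seen, Adad1 on the far side of Il2 stood at 0.476 ± 0.825, 1.84 ± 0.735 and 20.2 ± 18.7 normalized counts in unconditioned, stromal and adipocyte medium (1, 7 and 49 reads). Bbs12, a cilium gene past Il21 and Cetn4, stood at 124 ± 23.95, 120.3 ± 14.3 and 23.9 ± 14.02. Adad1 was thus highest and Bbs12 lowest in adipocyte medium.

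Il10 (ENSMUSG00000016529) differed least from unconditioned medium in adipocyte medium. Normalized counts were 161, 169 and 137 in unconditioned medium, 117, 193 and 96.99 in stromal medium, and 831, 602 and 947 in adipocyte medium. Unconditioned and stromal samples overlapped. Their log2 difference was -0.26 (SE 0.25) and turned to 0.10 under median of ratios scaling, so it has no stable direction. Means were 156 ± 16.7, 135 ± 50.5 and 793 ± 175 (SD, n = 3), 5.08-fold unconditioned medium in adipocyte medium. Adipocyte medium exceeded stromal medium by 2.58 on the log2 scale (SE 0.25, limma adjusted p = 9.96e-07).

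Ifng (ENSMUSG00000055170), the macrophage-activating cytokine gene of type 1 cells, was high in both conditioned media. Normalized counts in mice 1, 2 and 3 were 97.1, 132 and 119 in unconditioned medium, 321, 381 and 360.4 in stromal medium, and 2119.9, 1609 and 1698 in adipocyte medium. The media were fully separate, and in stromal medium the mice were closer together than for the other 9 genes (coefficient of variation 8.64%). Means were 116 ± 17.7, 354 ± 30.6 and 1809 ± 273 (SD, n = 3), 3.05-fold unconditioned medium in stromal and 15.6-fold in adipocyte medium. Adipocyte medium exceeded stromal medium by 2.34 on the log2 scale (SE 0.16, limma adjusted p = 8.43e-08).

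Il17a (ENSMUSG00000025929), for a cytokine that draws in neutrophils, was found almost entirely in adipocyte samples. Its reads in mice 1, 2 and 3 were 0, 0 and 0 in unconditioned medium, 0, 3 and 0 in stromal medium, and 63, 32 and 104 in adipocyte medium. In adipocyte medium these were 90.6, 28.8 and 102 normalized counts, lowest in mouse 2. At 3 reads per unconditioned library, adipocyte medium was at least 23.1-fold higher. The ratio to stromal medium was 83.2 (95% counting interval 28.1 to 407). Il17a too passed the filter through its adipocyte samples alone and is given with no p.

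Il17f (ENSMUSG00000041872), its neighbour and closest relative, had reads in more samples. They were 0, 4 and 1 in unconditioned medium, 12, 11 and 8 in stromal medium, and 93, 53 and 132 in adipocyte medium in mice 1, 2 and 3. Normalized counts were 10.02, 7.26 and 9.58 in stromal medium, above all unconditioned samples, and 134, 47.7 and 129 in adipocyte medium, above all stromal samples. Against unconditioned medium the ratio was 5.20 in stromal medium (95% counting interval 2.01 to 17.1) and 58.5 (24.8 to 182) in adipocyte medium. Adipocyte medium exceeded stromal medium by 3.26 on the log2 scale (SE 0.60, limma adjusted p = 2.39e-04).

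Il22 (ENSMUSG00000074695), whose product acts on epithelial cells, reached overlapping levels in both conditioned media. Normalized counts in mice 1, 2 and 3 were 2.86, 3.48 and 0.886 in unconditioned medium, 41.7, 33.6 and 93.4 in stromal medium, and 84.9, 79.2 and 67.4 in adipocyte medium. Both conditioned groups were clear of the unconditioned samples, which had 2, 4 and 1 reads, and the stromal sample of mouse 3 was the highest of all. Adipocyte minus stromal medium was 0.58 on the log2 scale (SE 0.46, limma adjusted p = 0.240), with a 95% interval of -0.42 to 1.59. It passed the threshold under median of ratios scaling (1.15, limma adjusted p = 0.0313) and without mouse 3 in every medium (1.11, limma adjusted p = 0.0321), in a range of 0.0313 to 0.66 over 19 alternatives.

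Adipocyte against stromal medium is the 1 contrast that the authors did not deposit, although its samples took part in the choice of genes. In limma 9 of the 10 genes were higher in adipocyte medium and 0 lower, where 91.0% of all genes tested passed the threshold, 33.8% higher and 57.2% lower. Among the 9 are Il3, Il13 and Il17a, which had to be high in adipocyte medium to pass the filter. The same 9 did not overlap between the media, as for 33.4% of all genes tested. Of the 969 genes higher in adipocyte than in unconditioned medium 86.5% were also higher than in stromal medium, so 9 of 10 is near the share of genes that entered in the same way and is no result about the cytokine genes. The median log2 difference of the 10 was 3.02, beside -0.60 over all genes tested, most of which were lower. The median of the 969 genes was not computed, so the 3.02 is a description. The stromal mean was 72.9% of the adipocyte mean for Il22, 19.6% for Ifng, 17.1% for Il10, 9.69% for Il2, 6.19% for Il4 and 5.77% for Il21.

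**Figure D2:**
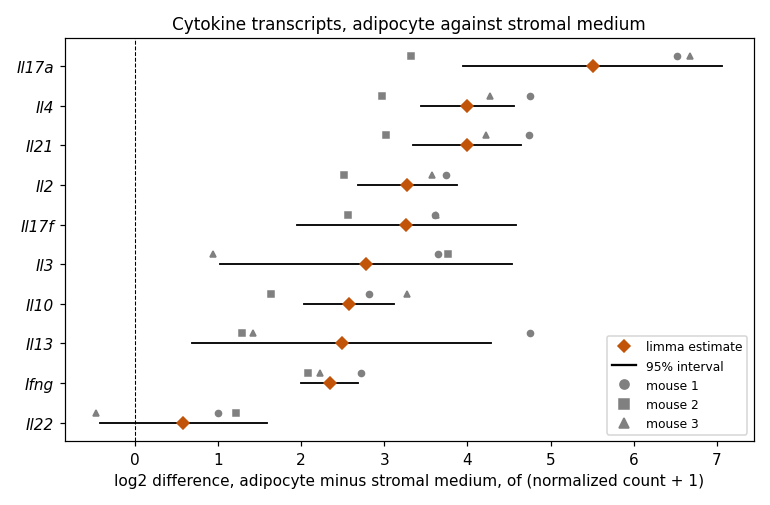
Log2 difference of (normalized count + 1) between adipocyte and stromal medium for the 10 cytokine genes; diamonds are limma estimates, lines their 95% intervals and grey symbols the 3 mice. The intervals of 9 genes lie above 0, and that of Il22 runs from -0.42 to 1.59. Among the 9, Il3, Il13 and Il17a passed the filter through adipocyte samples alone, so their intervals are a description.

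Stromal medium divided the 10 genes. Every stromal sample was above every unconditioned sample for 5 of them, Il4, Il21, Ifng, Il17f and Il22, as for 25.1% of all genes tested (57.7% passed the limma threshold, 21.1% higher and 36.6% lower) and for 56.2% of the 969 genes higher in adipocyte medium. The count of 5 is near the latter share. Il2 and Il10 overlapped the unconditioned samples, and Il3, Il13 and Il17a had 3, 4 and 3 reads over the 3 stromal libraries. The authors' deposited table for stromal medium lists 2 of the 10, Ifng with a log2 fold change of 1.59 and Il22 with 4.49.

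Levels of different genes can be compared per length only. Per kilobase of exon (GENCODE M21, exons of a gene joined), Il4 led in adipocyte medium at 5266 ± 1845 normalized counts (SD, n = 3). Il2 at 1417 ± 605 and Ifng at 1397 ± 211 followed and differed by less than their spread, as did Il10 at 606 ± 134 and Il21 at 605 ± 279.8. Il22 at 69.5 ± 8.02, Il17a at 62.9 ± 33.5 and Il17f at 51.2 ± 23.9 lay within their spread of one another. Il3 at 16.9 ± 3.99 and Il13 at 10.3 ± 9.74 came last. In unconditioned medium Il4 at 144 ± 23.3, Il10 at 119 ± 12.7, Il2 at 111 ± 20.4 and Ifng at 89.6 ± 13.6 were close together and Il21 at 17.97 ± 4.00 was lower. The joined exons of Il21 span 5259 bases, against 629 to 2022 for the other 9 genes.

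The samples of the 3 mice differed in the size of the response. With 1 sample per mouse and medium, differences between mice and between samples cannot be told apart. In adipocyte medium mouse 2 was lowest for 7 of the 10 genes (Il2, Il4, Il21, Il10, Ifng, Il17a and Il17f) and mouse 3 for 3. Among the 969 genes higher in adipocyte medium mouse 2 was lowest for 64.8%, near that share. The 10 genes summed to 19125, 9394 and 13909 normalized counts in mice 1, 2 and 3 in adipocyte medium, 1163, 1548 and 1184 in stromal medium and 616, 725 and 682 in unconditioned medium. Il4 made up 44.4% to 46.4% of the sum in adipocyte, 26.9% to 35.9% in stromal and 23.4% to 29.3% in unconditioned medium.

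Other T cell cytokine genes mostly moved with these 10. From a list of 31, 15 were tested. In adipocyte against unconditioned medium 14 were higher and 1 lower, where 33.8% and 63.4% of all genes tested were, with a median log2 difference of 2.13, beside -1.03 over all genes tested. That contrast and stromal against unconditioned medium chose the genes of the sample table, here and in the lists that follow. Counts in both are therefore a description. In stromal against unconditioned medium 7 were higher and 1 lower, where 21.1% and 36.6% of all genes tested were, and 7 did not pass. Against stromal medium 13 were higher in adipocyte medium and 2 lower, or 13 and 0 under median of ratios scaling, a share near the 86.5% of genes that entered as higher in adipocyte medium. Cd40lg, the ligand by which helper cells license B cells, was at 3425 ± 102, 3095 ± 268 and 11218 ± 3099 normalized counts in unconditioned, stromal and adipocyte medium (SD, n = 3). Tnfsf11, for the osteoclast factor RANKL, was at 1100.4 ± 102, 2008 ± 277 and 4906 ± 1273, and Fasl, for a death ligand, at 1627 ± 94.2, 1390.2 ± 308 and 3611 ± 661. Il16, for a chemoattractant, was the 1 gene lower in adipocyte than in unconditioned medium, at 23979.6 ± 731, 20991 ± 1394 and 12735 ± 542, and its difference of -0.91 became 0.01 under median of ratios scaling.

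Receptor chains of these cytokines did not move in 1 direction. From a list of 22, 7 were tested. In adipocyte against unconditioned medium 4 were higher and 3 lower, where 33.8% and 63.4% of all genes tested were. Under median of ratios scaling 5 were higher and 1 lower. Il4ra, the chain shared by the receptors of interleukins 4 and 13, was at 29443 ± 3776, 57583 ± 9186 and 72782 ± 10542 in unconditioned, stromal and adipocyte medium (SD, n = 3). Il21r was at 19508 ± 1223, 16843 ± 2786 and 39272 ± 4805. Ifngr2, a chain of the interferon gamma receptor, was at 5760.4 ± 142, 5172 ± 585 and 11970.1 ± 1627. Il12rb2, which receives a signal that favours type 1 cells, was at 1957 ± 445, 2588 ± 325 and 4811 ± 395. It was 0.90 higher in adipocyte than in stromal medium (SE 0.15, limma adjusted p = 8.77e-05). This p too reuses adipocyte samples that took part in the choice of genes and is no independent test. Il13ra1, named after its values were seen, went from 146 ± 33.3 to 11.04 ± 2.53 in adipocyte medium.

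Few regulators of helper types were in the sample table, and Tbx21, Gata3 and Foxp3 were not analysed here. Of 8 type 2 regulators 3 were tested, and all 3 (Nfil3, Gfi1 and Junb) were higher in both conditioned media than in unconditioned medium. Beside this and the regulator counts that follow, 33.8% of all genes tested were higher in adipocyte and 21.1% in stromal medium. Junb, an AP-1 subunit gene, was at 19731 ± 99.3, 30685 ± 4016 and 102513 ± 18293 normalized counts in unconditioned, stromal and adipocyte medium. Of 8 Th17 regulators 4 were tested, and all 4 were higher in adipocyte medium and 2 in stromal medium. With the mouse as a block, or under median of ratios scaling, 3 were higher in stromal medium. Batf, for a partner of AP-1, was at 1938 ± 122, 2311 ± 77.9 and 5994 ± 928, and Stat3, which carries signals of interleukins 6 and 21, at 28795 ± 2094, 53048 ± 4604 and 86234 ± 9825. Both follicular helper genes tested of 10, Bcl6 and Tox, were higher in adipocyte medium, and Bcl6, the defining factor of those cells, was at 3228 ± 58.5, 4579.8 ± 1311 and 12496 ± 1613. Irf1, for a factor induced by interferons, was at 17092 ± 613, 41460.5 ± 3555 and 48111 ± 9217, with a difference of 0.20 between the conditioned media (limma adjusted p = 0.162). Of 7 regulatory T cell markers 2 were tested, and in adipocyte against unconditioned medium Ctla4, a brake on costimulation, was higher (1.06) and Tnfrsf18, which encodes GITR, lower (-0.97, or -0.05 under median of ratios scaling).

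The tested genes of a list for calcium, AP-1 and NF-kB signalling, among them no NFAT or calcineurin gene, were higher in adipocyte medium. Of the 25 genes listed 12 were tested. The NFAT, calcineurin and Rcan1 genes of that list were not analysed here. All 12 were higher in adipocyte than in unconditioned and than in stromal medium. Of all genes tested 33.8% were higher in each, and 86.5% of those higher in the first were higher in the second. In stromal against unconditioned medium 3 were higher, 0 lower and 9 did not pass (6 higher under median of ratios scaling). Log2 differences of the 12 between adipocyte and stromal medium ran from 0.60 to 2.84. The orphan nuclear receptor genes Nr4a1 and Nr4a2 were 2.22 and 2.06 higher in adipocyte than in stromal medium. In the same contrast the AP-1 gene Fosl2 was 2.41 and the NF-kB gene Relb 0.84 higher. Genes that limit cytokine mRNA were higher as well. All 4 tested of 13 were higher in adipocyte than in unconditioned and than in stromal medium, beside the same shares of all genes, and in stromal against unconditioned medium 0 passed in limma, with 2 higher under median of ratios scaling. Zfp36, for a protein that binds AU-rich tails of cytokine mRNA, was at 8341 ± 612, 7419 ± 416 and 24059.6 ± 6260.4, and Rc3h1, for Roquin, at 3167 ± 114, 3385 ± 142 and 5724 ± 462.

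**Figure D3:**
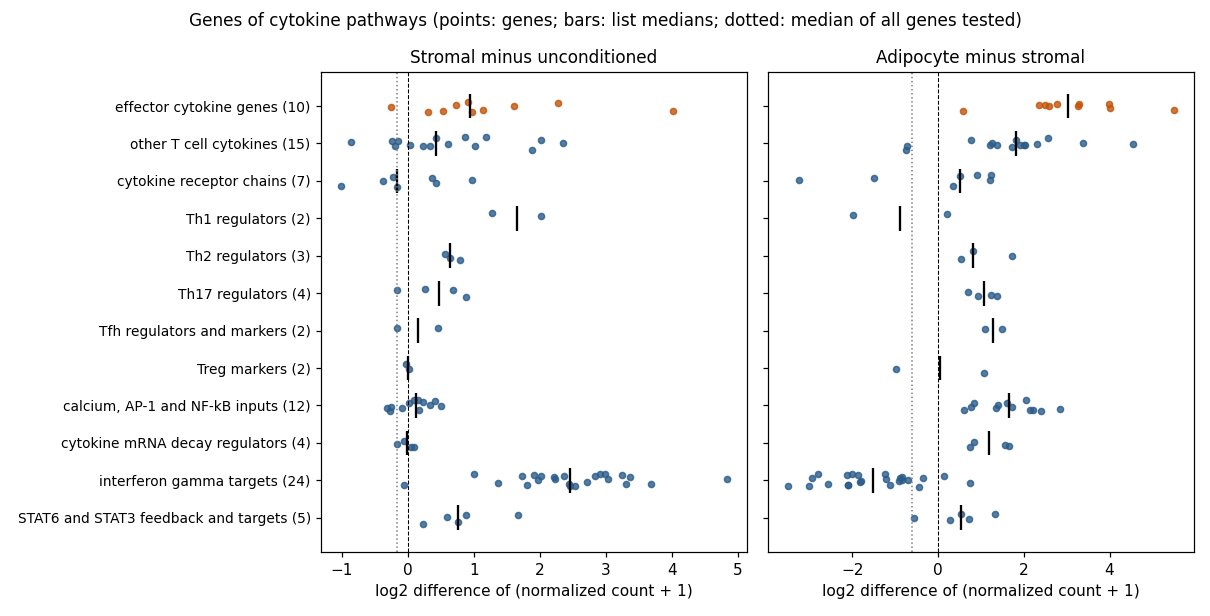
Log2 differences of (normalized count + 1) for the cytokine genes (orange) and the tested genes of each list (blue), stromal minus unconditioned medium and adipocyte minus stromal medium; bars are medians and the dotted line is the median of all genes tested. Interferon gamma targets have a median of 2.45 in the first contrast and -1.53 in the second, where the cytokine genes have 3.02. All genes shown were chosen by differences from unconditioned medium, so these medians are a description.

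Between the 2 conditioned media most targets of interferon gamma did not follow the level of Ifng. Whether Ifng acted on these genes was not tested. Ifng was 5.11-fold higher in adipocyte than in stromal medium. Of 28 targets 24 were tested, and 22 were lower in adipocyte than in stromal medium, where 57.2% of all genes tested were. Of the rest 1 was higher (Serpina3f) and 1 did not pass (Cd274), both named after their values were seen. The share of lower genes among those that entered as higher in stromal medium was not computed, so the 22 are a description. Under median of ratios scaling 14 were lower and 2 higher. The median log2 difference was -1.53, beside -0.60 over all genes tested. Against unconditioned medium 23 of the 24 were higher in stromal medium, where 21.1% of all genes tested were. In adipocyte medium 14 were higher and 1 lower, where 33.8% and 63.4% of all genes tested were, and 9 did not pass. Under median of ratios scaling 23 were higher and 1 lower in adipocyte medium. Both contrasts chose genes for the sample table, so these counts are a description. Igtp, an immunity GTPase gene, was at 14276 ± 1444, 83107 ± 14904 and 35954 ± 11133 normalized counts in unconditioned, stromal and adipocyte medium (SD, n = 3), and Gbp4, a guanylate binding protein gene, at 11999 ± 1264, 57531 ± 16567 and 16839 ± 6165. Tgtp1 and Tgtp2 are close copies with uncertain counts. Their differences of -0.70 and -0.44 became -0.14 and 0.13 under median of ratios scaling.

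Most tested feedback genes of STAT factors that serve interleukins 4 and 21 were higher in both conditioned media. Of 10 such genes 5 were tested, and all 5 were higher in adipocyte and 4 in stromal medium than in unconditioned medium. Of all genes tested 33.8% and 21.1% were higher in these contrasts, which chose the genes, so the counts are a description. Socs3, an inhibitor of cytokine signals, was at 3486 ± 148, 6442 ± 460.3 and 7928 ± 1435 normalized counts in unconditioned, stromal and adipocyte medium. Pim3, a survival kinase gene, was at 3956 ± 90.5, 4607 ± 125 and 11643 ± 1682. Its relative Pim2 was at 8318 ± 417, 26757 ± 4416 and 17963 ± 1969 and the 1 gene lower in adipocyte than in stromal medium (-0.57, limma adjusted p = 7.12e-04), a difference of 0.00 under median of ratios scaling.

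The 3 genes most like each cytokine gene were found by Pearson correlation of log2(normalized count + 1) over the 9 samples, as a description. They were Kcmf1, Junb and Spindoc for Il4 (0.996, 0.996 and 0.995) and Cage1, Ipo7 and Myc for Il13 (0.960, 0.954 and 0.953). For the pair on chromosome 3 they were Maff, Rassf1 and Ube2d3 for Il2 (0.996, 0.995 and 0.994) and Batf, Pim3 and Samsn1 for Il21 (0.997, 0.997 and 0.996). Junb, Batf and Maff are genes of the AP-1 and related bZIP factors. Next came Lilrb4a, Rsbn1l and Purb for Il3 (0.963, 0.955 and 0.951) and Fosl2, Inpp5a and Vps37b for Il10 (0.996, 0.994 and 0.993). The chemokine gene Ccl3 led for 2 of the genes, with Ccl3, Prelid3b and Fam221a for Ifng (0.993, 0.992 and 0.991) and Ccl3, Prelid3b and Ifng for Il17f (0.986, 0.979 and 0.976). The rest were Clk3, Nr4a2 and Syde2 for Il17a (0.998, 0.996 and 0.996) and Resf1, Irf1 and Gpnmb for Il22 (0.965, 0.964 and 0.964). The gene at place 100 still had an r of 0.983 for Il4 and of 0.879 for Il22, the highest and lowest of the 10, so many genes share such profiles, and the 9 points share mice, media and scaling.

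Markers of cells that could hold these transcripts were read beside them. Of 15 T cell markers 4 were in the table (Cd3e, Cd3g, Cd8a and Cd8b1), present in every sample, with sums of 86513 to 97969 normalized counts in unconditioned, 72070.4 to 73297 in stromal and 32578 to 35237 in adipocyte medium. Basophils and mast cells also make interleukins 4 and 13. Of 12 of their markers 6 were in the table, with sums of 5460.5 to 6169, 4369 to 5972 and 1677 to 2708 in the same order. Most of these sums was Kit, at 4853 ± 459, 3764 ± 495 and 1827 ± 423. Gata2 was at 348 ± 36.9, 714 ± 151 and 96.7 ± 63.6, and both were named after their values were seen. All 6 markers were lower in adipocyte than in unconditioned and than in stromal medium, beside 63.4% and 57.2% of all genes tested. Of 12 natural killer markers 2 were in the table, with sums of 2004 to 2089.6, 756 to 889.7 and 1296 to 2750.2, and the receptor gene Klre1 was at 274 ± 51.9, 335 ± 5.31 and 592 ± 79.2 and the perforin gene Prf1 at 1760.5 ± 94.4, 506 ± 77.2 and 1459.7 ± 649.7. Of 10 markers of innate-like and gamma-delta T cells 2 were in the table, with sums of 1946 to 2157, 1469.5 to 1575 and 1773 to 2208. Zbtb16, a factor of innate-like T cells, was at 508 ± 8.97, 347 ± 54.6 and 1199 ± 219.8 and Scart1 at 1518 ± 122, 1169 ± 82.2 and 725 ± 27.4. Sums of B cell, myeloid and neutrophil markers were lower in every adipocyte sample than in any other sample. In adipocyte against unconditioned medium 5 of 5, 7 of 8 and 6 of 7 of these markers were lower, beside 63.4% of all genes tested. Named after their values were seen, Cd14 (myeloid) did not pass and Ngp (neutrophil) was higher. The sample table holds only genes listed as changed, so all these sums cover such markers alone. No marker found there was at 0 in all samples of a group. The 2 markers of each of the natural killer and innate-like lists thus disagreed. Klre1 and Zbtb16 were highest in adipocyte medium, while Scart1 was lowest there and Prf1 was not higher there than in unconditioned medium. Which cells held the cytokine transcripts was not tested.

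**Figure D4:**
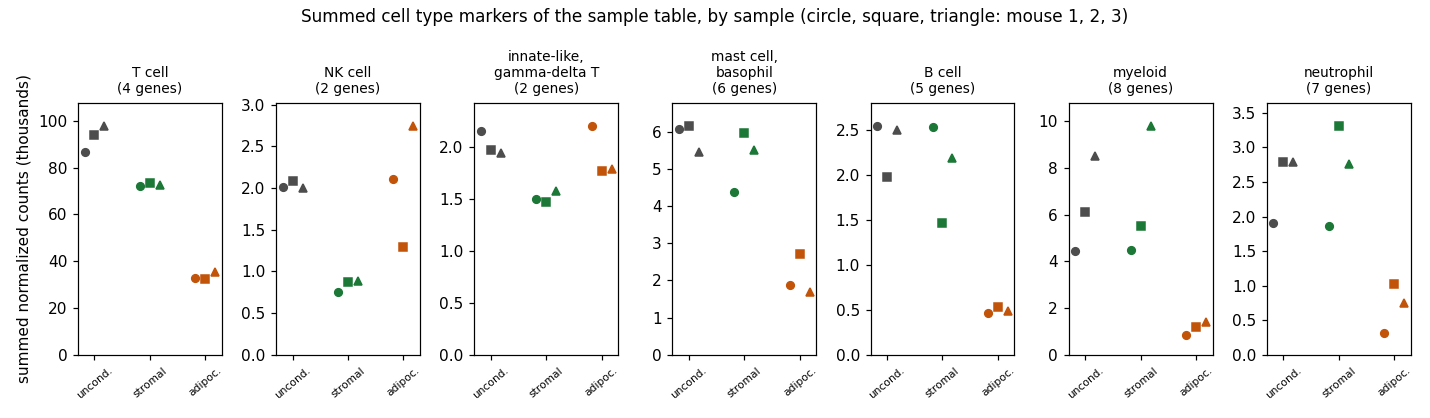
Summed normalized counts (scaled as the axis states) of cell type markers in the sample table, 1 point per sample, with the number of genes above each panel. Mast cell and basophil sums lie at 1677 to 2708 in adipocyte medium and at 4369 to 6169 in the other media. Kit is the largest part of these sums.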

How the data were processed

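Libraries of 9 samples were made with SMART-seq v4 and Nextera XT kits, per the labels' protocols. These kits do not mark strand, so a gene and its antisense partner share reads. FastQC, Trimmomatic, featureCounts and DESeq2 appear in the submitters' processing notes beside mouse and human genome builds, and no aligner is named. The deposited sample table gives a normalized signal per gene, which is a read count divided by a size factor of the sample, and the authors' cluster number. Dividing by the smallest step gave back whole reads for 100% of values (within 0.001 reads). Per the file headers, the authors' tables of comparisons hold a mean signal, log2 fold changes, a Wald score as statistic and p-values.

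Log2(normalized count + 1) was tested in limma 3.58.1 (R 4.3.3, trend) for the 2868 genes whose mean reached 1. One fit held all 9 samples, and two-sided p-values were adjusted by Benjamini-Hochberg with a threshold of 0.05. Fold changes on this scale understate low genes. Alternatives were edgeR 4.0.16 and DESeq2 1.42.0 on the recovered reads, other pseudocounts, no filter, other scaling, the mouse as a block and leaving out samples. The labels name the mouse of each sample, which gives the pairing (correlations of same-mouse deviations from -0.12 to 0.26). The fit was also run on simulated data in which few genes changed, unlike here, so that run checks its working only. Some results on regulators of helper types are not reported here. The cytokine genes and the lists were chosen with earlier results of these data known. Genes named are all 10 cytokine genes, up to 4 per list by highest mean, fixed neighbours and the 3 most alike per cytokine gene, or are said to be named after their values were seen.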

Additional observations from a re-analysis of the deposited data

How the results depend on the processing

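Over 19 alternatives 7 to 10 of the 10 cytokine genes were higher in adipocyte than in stromal medium, against 9 as reported, and the calls that moved were those of Il3, Il13 and Il22. There were 8 in DESeq2, without adipocyte mouse 1 and without mouse 2 in every medium, 7 without mouse 1 in every medium, and 10 without mouse 3 in every medium and under median of ratios scaling. With the mouse as a block the calls over all genes were 2788 for adipocyte over unconditioned medium, 1665 for stromal over unconditioned medium and 2619 between the conditioned media, against 2787, 1655 and 2609 without the block, and 9 cytokine genes were still called in the last. The edgeR quasi-likelihood test on the recovered reads called 2784, 1687 and 2611. Fitted differences of Il3, Il13 and Il17a from unconditioned medium, where they had 0 reads, depend on the pseudocount and were not used. Their fitted differences between adipocyte and stromal medium also vary, from 0.89 to 3.71 for Il3, 0.90 to 3.50 for Il13 and 2.84 to 6.60 for Il17a, against 2.78, 2.49 and 5.51 as fitted. Il3 and Il13 had 30 reads each over the 3 adipocyte libraries, which limits both. Il3, Il13 and Il17a had to be high in adipocyte medium to pass the filter, so counts that include them are a description.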
